A study of Mus musculus with 4 samples.

Results

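The actin nucleators and elongators of the formin, Ena/VASP and WASP/WAVE families, with the WIP proteins, profilins, ABI adaptors, zyxin, lamellipodin, cortactin and slingshot, were followed as a set of 32 named genes. All 32 were found by gene symbol among the 55573 genes of a ribosome profiling table, and the set was proposed with earlier results of these data known. The table holds 4 libraries of primary myoblasts, 2 labelled wild-type (WT) and 2 labelled eIF5A knockout (KO). The cells came from hind-limb muscle of 3-week-old mice. In the KO mice, floxed eIF5A alleles are deleted by a tamoxifen-inducible Cre recombinase expressed from the Pax7 locus, so the deletion is limited to Pax7-expressing satellite cells and their progeny, and any other cell in the culture keeps the gene. The floxed allele was made on the C57BL/6j background. The controls are littermates without the deletion, given in one place of the study as Cre carriers and in another as floxed mice without Cre. All cultures were proliferating at day 2 in medium with FGF and were treated with cycloheximide, which freezes ribosomes on mRNA. Lysates were digested with RNase, and the fragments protected by ribosomes were sequenced, although the sample titles speak of polysomes. Signal is given as RPKM, reads per kilobase of gene length scaled to the size of the library, and is not divided by mRNA level. How many animals contributed to each library is not given in the sources used here, so p-values measure only the spread between these libraries, which may be technical.

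eIF5A carries the hypusine residue and binds stalled ribosomes, where it eases the formation of peptide bonds between consecutive prolines. Formins, Ena/VASP proteins and WASP/WAVE proteins all contain long proline runs, because these runs bind profilin bound to actin monomers and feed monomers to the growing filament. Formins and Ena/VASP proteins elongate unbranched filaments, whereas WASP and WAVE proteins switch on the Arp2/3 complex, which builds branched networks. In myoblasts these machines drive migration and the membrane protrusions that precede fusion.

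The proline runs are the feature that links most of these genes, and their coding sequences show how long they are. Of the 32 genes, 28 encode at least 1 run of 5 or more consecutive prolines in the longest annotated coding sequence (87.5%). The set was named for such runs, so this share is a description of the choice, and 4.06% of 9869 tested protein-coding genes encode one. Runs of 10 or more were found in 13 members. The 4 members without a run of 5 were both profilins, cortactin and slingshot, whose longest runs were 1, 1, 2 and 2 prolines. The longest runs in the Ena/VASP, WASP/WAVE and WIP classes (Enah, Was and Wipf3) and that of Raph1 are printed from the GRCm38 genome with GENCODE M21 annotation, 5′ to 3′ on the coding strand and with 2 codons on each side. Every proline codon is in capitals. Raph1, the longest run of all with 20 prolines, was chosen for printing after values were seen.
Raph1: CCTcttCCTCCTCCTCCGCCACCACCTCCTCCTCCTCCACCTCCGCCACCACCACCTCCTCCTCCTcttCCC
Enah: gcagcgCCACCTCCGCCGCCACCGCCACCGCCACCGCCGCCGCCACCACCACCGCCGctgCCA
Wipf3: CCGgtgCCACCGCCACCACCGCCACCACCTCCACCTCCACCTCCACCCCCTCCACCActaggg
Was: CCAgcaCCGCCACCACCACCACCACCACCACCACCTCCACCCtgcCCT
The Raph1 stretch lies at chr1:60490148-60490219 on the minus strand in exon 14 of 14 and is wholly coding. Those of Enah (chr1:181921893-181921955, minus strand, exon 7 of 15), Wipf3 (chr6:54452886-54452948, plus strand, exon 1 of 8) and Was (chrX:8085962-8086009, minus strand, exon 10 of 12) are also wholly coding. Codon choice differed between them: the Enah stretch holds 9 CCG codons and 1 CCT codon, whereas the Raph1 stretch holds 2 CCG codons and 13 CCT codons.

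Next, the runs of the 3 members with the largest log2 fold changes among those whose groups did not overlap (Diaph3, Wasf2 and Wipf1, chosen for printing after their values were seen) are given in the same way.
Diaph3: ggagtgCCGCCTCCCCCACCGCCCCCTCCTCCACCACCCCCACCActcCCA
Wasf2: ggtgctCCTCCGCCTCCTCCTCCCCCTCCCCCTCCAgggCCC
Wipf1: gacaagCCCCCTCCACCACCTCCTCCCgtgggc
They lie at chr14:86966481-86966531 (minus strand, exon 16 of 28), chr4:133194727-133194768 (plus strand, exon 7 of 8) and chr2:73437261-73437293 (minus strand, exon 5 of 8). The runs hold 13, 10 and 7 prolines. The Diaph3 run is the longer of these, and Wipf1 has the shortest run but the largest proline content of the tested members, 27.8% of its residues.

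**Figure D1:**
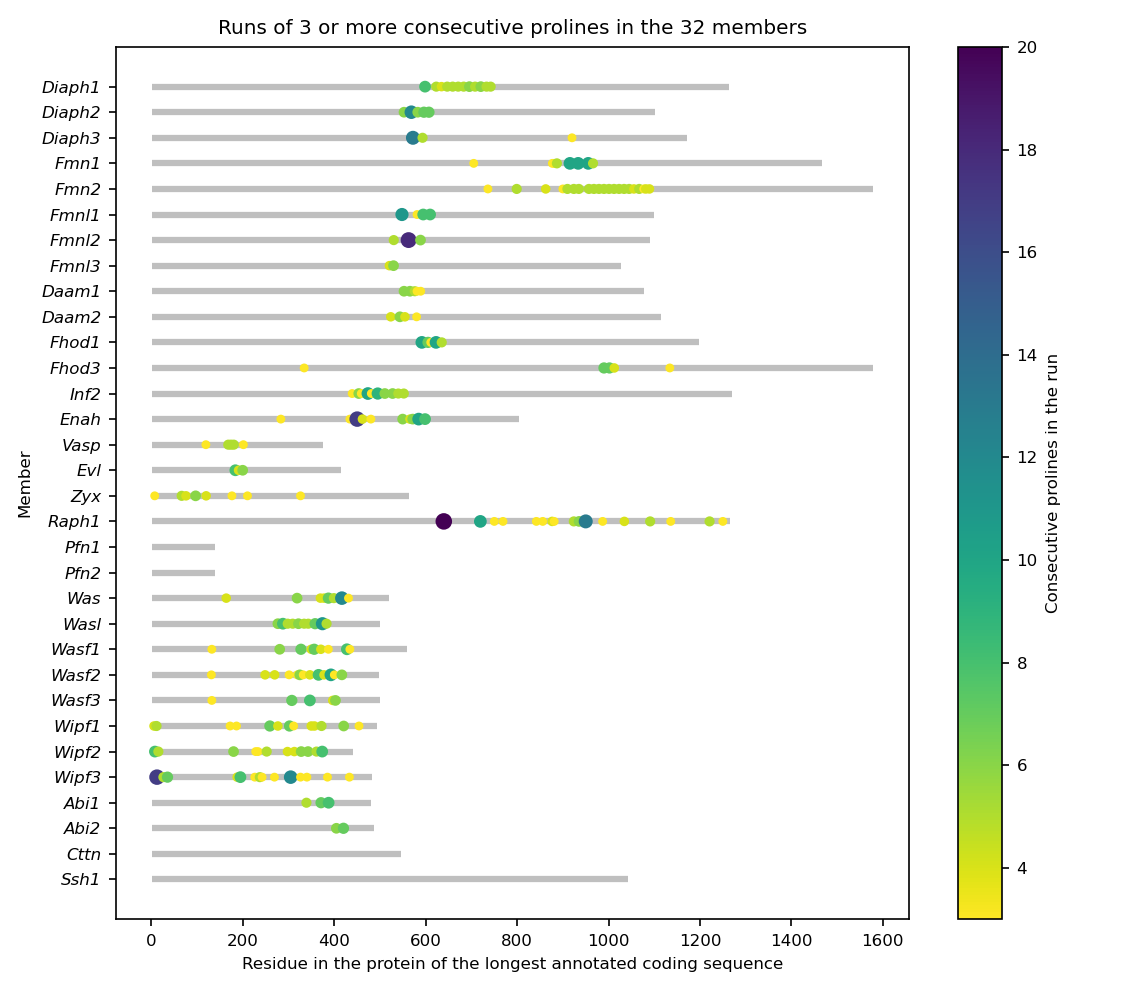
Each grey bar is the protein of 1 of the 32 genes (x axis, residue number), and each dot is a run of 3 or more consecutive prolines, colored and sized by its length. In most formins the runs sit close together, with single runs apart in Diaph3, Fmn1 and Fhod3, and Pfn1, Pfn2, Cttn and Ssh1 have none.

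The number of runs differed between the members. Fmn2 had the most runs of 3 or more prolines, 21, followed by Raph1 with 17 and Wipf3 with 14. Diaph3 and Fmnl2 had 3 each, so that a formin can hold a very long run and few others. In formins the main proline-rich block is the formin homology 1 domain, which binds profilin.

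The libraries set limits on all values below. Whole reads could be recovered from the table and summed to 642429 to 704006 per library, of which protein-coding genes took 41.5% and 33.9% in WT but 65.4% and 59.2% in those labelled KO. Eif5a itself was not lower in the latter: it stood at 34.9 and 65.2 RPKM in WT against 60.3 and 59.4 RPKM in KO (limma, log2 fold change 0.32, SE 0.48, adjusted p = 0.839), and the position of the deleted exons relative to these reads was not examined, so the group is called the libraries labelled KO. Myogenic markers summed to 350 and 214 RPKM in WT and to 121 and 136 RPKM in KO, with 9 of 10 below 0 in log2 fold change. Fibroblast markers summed to 485 and 292 RPKM against 847 and 376 RPKM, endothelial markers to 223 and 334 RPKM against 341 and 404 RPKM, and mural and glial markers to 105 and 67.1 RPKM against 91.6 and 66.1 RPKM. Immune markers summed to 50.7 and 81.4 RPKM against 70.3 and 52.9 RPKM, with Itgam at 0 reads in all 4 libraries. The myogenic markers Pax7 and Myod1, the fibroblast marker Pdgfra and the endothelial marker Pecam1 had reads in all 4 libraries, and the immune marker Ptprc had 0 reads in the second library of each group. In bulk material, fewer cells of a type and less RNA per cell cannot be told apart, and the part of cell composition in the results below was not tested.

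To ask whether ribosome-protected signal of these genes differed between the groups, the 11363 genes that averaged 1 RPKM or more were fitted with limma on log2(RPKM + 1). Of the 32 members, 25 entered the test. None of the 25 was called at an adjusted p under 0.05 (smallest adjusted p = 0.672 by limma), where 0.0968% of all tested genes were called lower and 0.0088% higher, and each of those called held 2 to 8 reads in total. At an unadjusted p under 0.05, 1 member was lower in the libraries labelled KO, Wipf1 (background 4.46% of all tested genes and 3.04% of the protein-coding ones), and 1 was higher, Diaph3 (background 2.86% and 2.94%). Diaph3 passed the filter only through KO, and without the filter 0 members were higher. Both KO values lay below both WT values in 3 tested members, Fmnl3, Wasf2 and Wipf1 (background 20.3% and 19.3%), and above them in another 3, Diaph2, Diaph3 and Abi1 (background 20.1% and 22.4%). These shares are near or below the background, so the counts give no result about the set as a whole. The log2 fold changes, coded as KO minus WT, were below 0 for 12 members and above 0 for 13, with a median of 0.066 that ranged from -0.14 to 0.17 over the alternative settings. Over 9877 tested protein-coding genes 46.9% were below 0 and 53.1% above, with a median of 0.05.

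**Figure D2:**
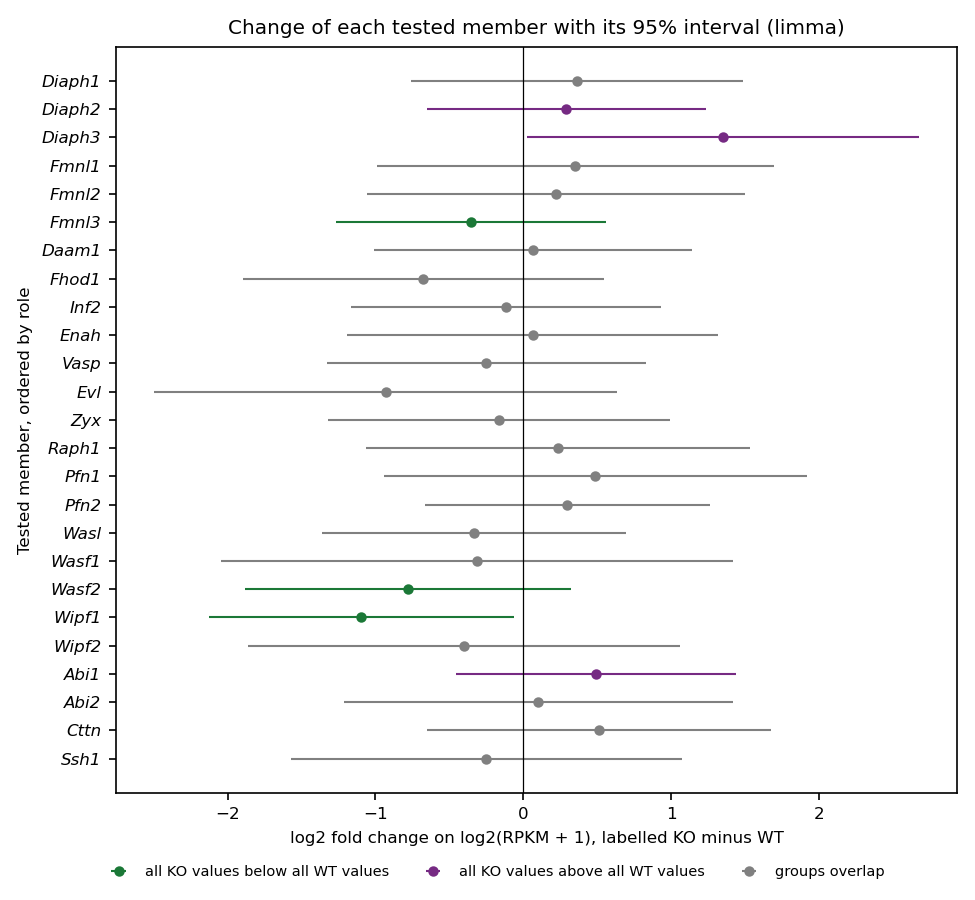
The log2 fold change on log2(RPKM + 1), libraries labelled KO minus WT (x axis), is shown for each of the 25 tested members with its 95% interval from limma, colored by whether the 2 KO values lie wholly below or above the 2 WT values. The intervals of 23 members include 0, and the unadjusted intervals of Diaph3 and Wipf1 do not.

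The precision was low. The 95% interval of the log2 fold change reached 0.91 to 1.73 to either side of the estimate over the 25 members, with a median of 1.17, where 1 is a 2-fold difference. An exact permutation test of 1 gene over 2 against 2 libraries cannot give a p below 0.333, and none is given. The 25 members held 10 to 1365 reads over the 4 libraries, with a median of 125, compared with a median of 54 over all tested genes.

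The levels spanned 2 orders of magnitude on the RPKM scale. Pfn1 was highest at a mean of 201 RPKM over the 4 libraries, which placed it at rank 57 among 21900 protein-coding genes. It was followed by Cttn at 31.3 RPKM, Zyx at 26.5 RPKM, Inf2 at 26.1 RPKM, Vasp at 24.2 RPKM and Wasf2 at 22.1 RPKM. The ranges of these 5 over the libraries overlap, so their order is not fixed by the data, whereas each Pfn1 value exceeded each value of any other member. The lowest tested members were Wasf1, Abi2, Fmnl1, Enah and Raph1, at means of 1.41 to 2.12 RPKM. The table divides by the whole gene length, and only 11.2% of the Enah length and 18.5% of the Raph1 length is coding. Divided by coding length instead, Wasf2 moved from rank 6 to rank 2 and Enah from rank 22 to rank 15, and the Spearman correlation of both scales was 0.88 over the 25 tested members, which share their reads.

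**Figure D3:**
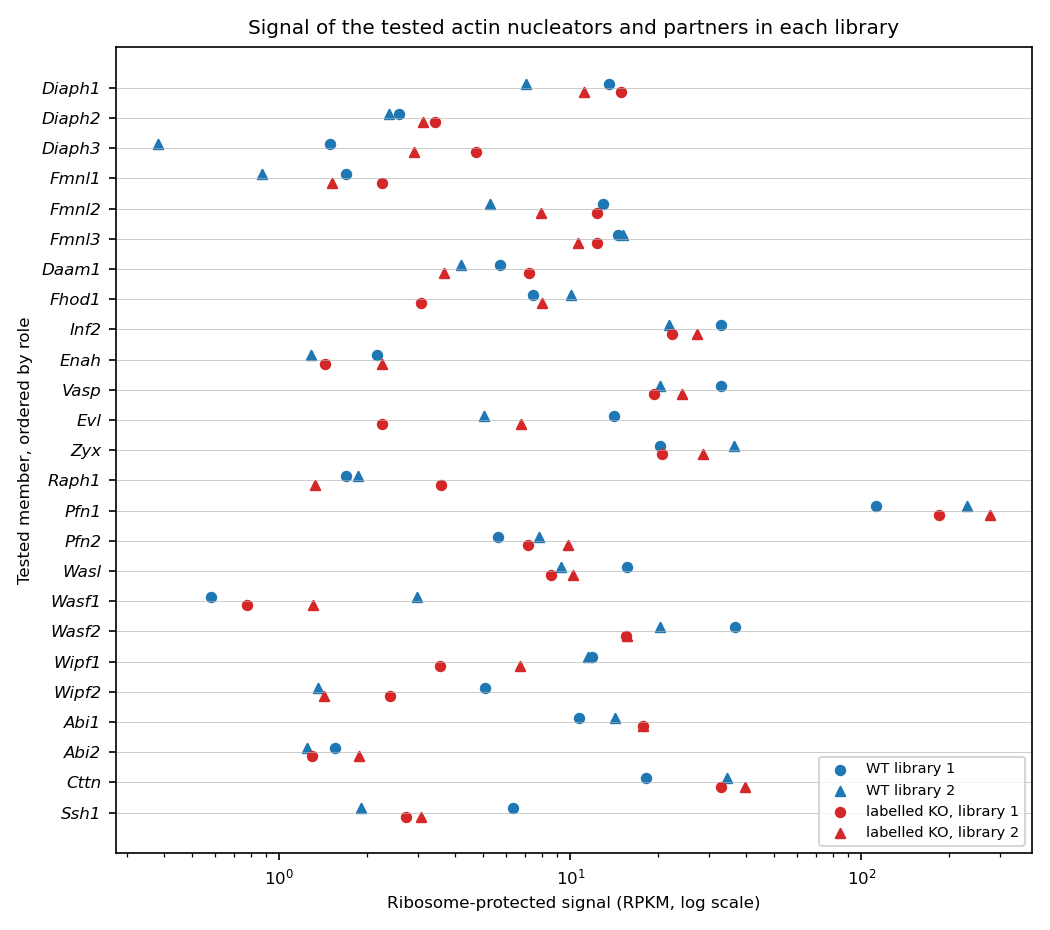
RPKM (x axis, log scale) of the 25 tested members in each of the 4 libraries, WT in blue and labelled KO in red, library 1 as circles and library 2 as triangles. Pfn1 stands alone at the right, and the WT and KO points are mixed in most rows, with Wipf1 and Wasf2 (red to the left) and Diaph3 (red to the right) as the rows that separate most.

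Among the formins, Diaph1, Diaph2 and Diaph3 nucleate unbranched filaments. Diaph3 measured 1.49 and 0.381 RPKM in WT and 4.75 and 2.89 RPKM in KO, with 5, 1, 24 and 13 reads behind them. Both KO values were above both WT values, and the log2 fold change was 1.35 (SE 0.54, unadjusted p = 0.0469, adjusted p = 0.672 by limma). Its WT mean of 0.935 RPKM lies below the filter of 1 RPKM, and without the filter the unadjusted p was 0.0605 (adjusted p = 0.765 by limma). The size depended on the pseudocount, with 2.12 at a pseudocount of 0.1 and 1.95 by limma-voom on recovered reads. Pooled over the libraries of a group, the ratio of KO to WT reads per unit of library size was 3.86 with an exact 95% interval of 1.62 to 11.2, which covers counting error only, as all such intervals here do. Cell cycle markers, which include genes of DNA replication and mitosis, summed to 54.4 and 113 RPKM in WT and to 133.5 and 122.9 RPKM in KO. All 10 markers were above 0 in log2 fold change. Their part in the Diaph3 difference was not tested. Diaph2 measured 2.58 and 2.39 RPKM in WT and 3.44 and 3.11 RPKM in KO. These groups did not overlap either, but the difference was small against its error (log2 fold change 0.29, SE 0.38, unadjusted p = 0.476, adjusted p = 0.812 by limma). Diaph1, the most abundant of these paralogs, measured 13.6 and 7.03 RPKM in WT and 15.0 and 11.1 RPKM in KO, and the groups overlapped.

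The FMNL formins act at lamellipodia and filopodia. Fmnl3 measured 14.5 and 15.2 RPKM in WT and 12.3 and 10.6 RPKM in KO, with no overlap (log2 fold change -0.35, SE 0.37, unadjusted p = 0.378, adjusted p = 0.761 by limma). Fmnl2, with the longest run of any formin, measured 12.9 and 5.27 RPKM in WT and 12.3 and 7.91 RPKM in KO. Its KO values lay inside the range of the WT values. Fmnl1, best known from blood cells, measured 1.70 and 0.869 RPKM in WT and 2.26 and 1.52 RPKM in KO from 23 reads in all.

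The remaining formins were led by Inf2, which both polymerizes and severs filaments and acts at the endoplasmic reticulum and mitochondria. Inf2 measured 33.0 and 21.8 RPKM in WT and 22.4 and 27.2 RPKM in KO, so that the KO values fell inside the WT range. Daam1, an effector of Wnt signaling, measured 5.74 and 4.19 RPKM in WT and 7.22 and 3.67 RPKM in KO. Here the WT values fell inside the KO range. Fhod1, which bundles and caps filaments, measured 7.47 and 10.0 RPKM in WT and 3.07 and 7.96 RPKM in KO, with overlap. Its exons overlap Tmem208 on the opposite strand, which held 95 reads, and whether the counting used strand is not given in the sources used here, so reads of the 2 genes cannot be told apart. The other 4 formins were not tested: Fmn1 held 37 reads in all, Daam2 25, Fhod3 6 and Fmn2 1.

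Ena/VASP proteins keep growing barbed ends uncapped, and zyxin and lamellipodin (Raph1) bring them to adhesions and to the leading edge. Vasp measured 33.0 and 20.3 RPKM in WT and 19.4 and 24.1 RPKM in KO, with overlap. Evl measured 14.1 and 5.05 RPKM in WT and 2.25 and 6.74 RPKM in KO. Evl was the most variable of the family, since the 2 WT libraries differed from each other by more than the mean of KO, and its limma interval for the log2 fold change (-2.50 to 0.63) includes 0 although the interval of the pooled read ratio, 0.238 to 0.764, does not include 1. Enah measured 2.17 and 1.29 RPKM in WT and 1.44 and 2.25 RPKM in KO. The groups overlapped for Enah, whose long GC-rich run is printed above. Raph1 measured 1.70 and 1.86 RPKM in WT and 3.60 and 1.33 RPKM in KO, and the 2 KO libraries stood on either side of WT. Zyx measured 20.3 and 36.6 RPKM in WT and 20.7 and 28.5 RPKM in KO, with both KO values inside the WT range.

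Profilins carry the ATP-actin monomers that proline runs bind, and contain no runs themselves. Pfn1 measured 112 and 230.3 RPKM in WT and 184 and 277 RPKM in KO, a mean of 171 ± 83.4 RPKM (SD, n = 2) against 231 ± 65.9 RPKM (SD, n = 2). In both groups library 2 was the higher, and the groups overlapped. Pfn2, the profilin prominent in brain, measured 5.62 and 7.79 RPKM in WT and 7.16 and 9.79 RPKM in KO, again with overlap.

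The WASP, WAVE and WIP proteins act upstream of the Arp2/3 complex. All 5 tested members of these families had log2 fold changes below 0, with a median of -0.40, where 46.9% of protein-coding genes were below 0. None passed the test at adjusted p under 0.05 (limma). The families were pooled for this count, which was not tested as a set, and Wasf1 rests on 10 reads. The signs are relative to the median gene, which itself shifts by 0.85 on the log2 scale when libraries are scaled to the same sum of RPKM. Without 1 WT library, the sign turned for Wasl and Wipf2 (WT library 1 left out) or for Wasf1 (WT library 2 left out).

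Wipf1 encodes WIP, the chaperone that binds WASP and N-WASP and stabilizes filaments, at chr2:73429610-73529734 on the minus strand. It measured 11.8 and 11.5 RPKM in WT and 3.55 and 6.72 RPKM in KO, with 42, 32, 19 and 32 reads behind them. The WT libraries were nearly equal, 11.7 ± 0.21 RPKM (SD, n = 2), and both KO libraries were lower and differed more from each other, 5.14 ± 2.24 RPKM (SD, n = 2). Its log2 fold change came to -1.10 (SE 0.42, unadjusted p = 0.0406, adjusted p = 0.672 by limma), and the ratio of pooled reads was 0.432 (95% interval 0.296 to 0.625). Over the fits that leave out 1 library the log2 fold change ranged from -1.48 to -0.71. Wipf1 also has the highest coding GC of the tested members, 62.6%, and with the trend of fold change on coding GC removed its log2 fold change was -0.66 (unadjusted p = 0.135, adjusted p = 0.776 by limma). Wipf2, its paralog, measured 5.09 and 1.36 RPKM in WT and 2.40 and 1.43 RPKM in KO, where the KO values fell inside the WT range. Wipf3 had 1 read in all.

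Wasf2 encodes WAVE2, the main WAVE protein of most cells outside the brain, at chr4:133130505-133199756 on the plus strand. It measured 36.8 and 20.4 RPKM in WT and 15.5 and 15.6 RPKM in KO, with 139, 60, 88 and 79 reads behind them. The KO libraries were alike and both lower, while the WT libraries differed from each other by more than WT library 2 differed from KO. The log2 fold change was -0.78 (SE 0.45, unadjusted p = 0.134, adjusted p = 0.697 by limma). The ratio of pooled reads was 0.526 with a 95% interval of 0.425 to 0.649. Without WT library 1 the log2 fold change was -0.37, and without WT library 2 it was -1.19. Wasf1, the neuronal paralog, was tested on 10 reads, and Wasf3 was not tested at 4 and 2 reads in WT and 0 and 1 reads in KO.

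Wasl encodes N-WASP, the ubiquitous WASP protein. It measured 15.6 and 9.30 RPKM in WT and 8.58 and 10.2 RPKM in KO, with overlap. Was, its hematopoietic counterpart, had 3 reads in all. The ABI adaptors hold the WAVE complex together and bind WAVE proteins directly. Abi1 measured 10.7 and 14.2 RPKM in WT and 17.8 and 17.8 RPKM in KO, so that both KO values were higher, opposite in direction to Wasf2 (log2 fold change 0.49, SE 0.39, unadjusted p = 0.248, adjusted p = 0.716 by limma). Over the fits that leave out 1 library its log2 fold change ranged from 0.30 to 0.68. Whether the Abi1 and Wasf2 differences differ from each other was not tested. Abi2 measured 1.55 and 1.24 RPKM in WT and 1.29 and 1.88 RPKM in KO, with overlap.

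Cortactin stabilizes branches made by the Arp2/3 complex and has no run of 3 prolines. Cttn measured 18.2 and 34.4 RPKM in WT and 32.9 and 39.9 RPKM in KO. WT library 1 alone was low, and the groups overlapped. Ssh1, a phosphatase that activates cofilin, measured 6.34 and 1.91 RPKM in WT and 2.73 and 3.06 RPKM in KO, with both KO values inside the WT range.

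Most families were carried by a single paralog. Pfn1 supplied 95.2% to 96.7% of the profilin RPKM, Wasl 90.8% to 100% of the WASP RPKM, Wasf2 84.4% to 95.3% of the WAVE RPKM and Abi1 87.3% to 93.2% of the ABI RPKM. In each of these families the share of the leading paralog overlapped between WT and KO. The formins were divided among more genes: Inf2 took 34.3% and 31.7% in WT and 26.6% and 34.7% in KO, and the order of the formins below it changed between libraries, with Fmnl3 at 22.2% and Fhod1 at 14.6% next in WT library 2 but Diaph1 at 17.8% next in KO library 1. Diaph3 was 1.54% and 0.555% of the formin RPKM in WT and 5.64% and 3.69% in KO. The 3 WAVE genes summed to 38.7 and 24.1 RPKM in WT and to 16.3 and 17.2 RPKM in KO, and the summed WIP signal 16.9 and 12.9 RPKM against 6.11 and 8.14 RPKM, which repeats the values of Wasf2 and Wipf1. The formin sum overlapped between the groups, at 96.4 and 68.7 RPKM against 84.2 and 78.3 RPKM.

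**Figure D4:**
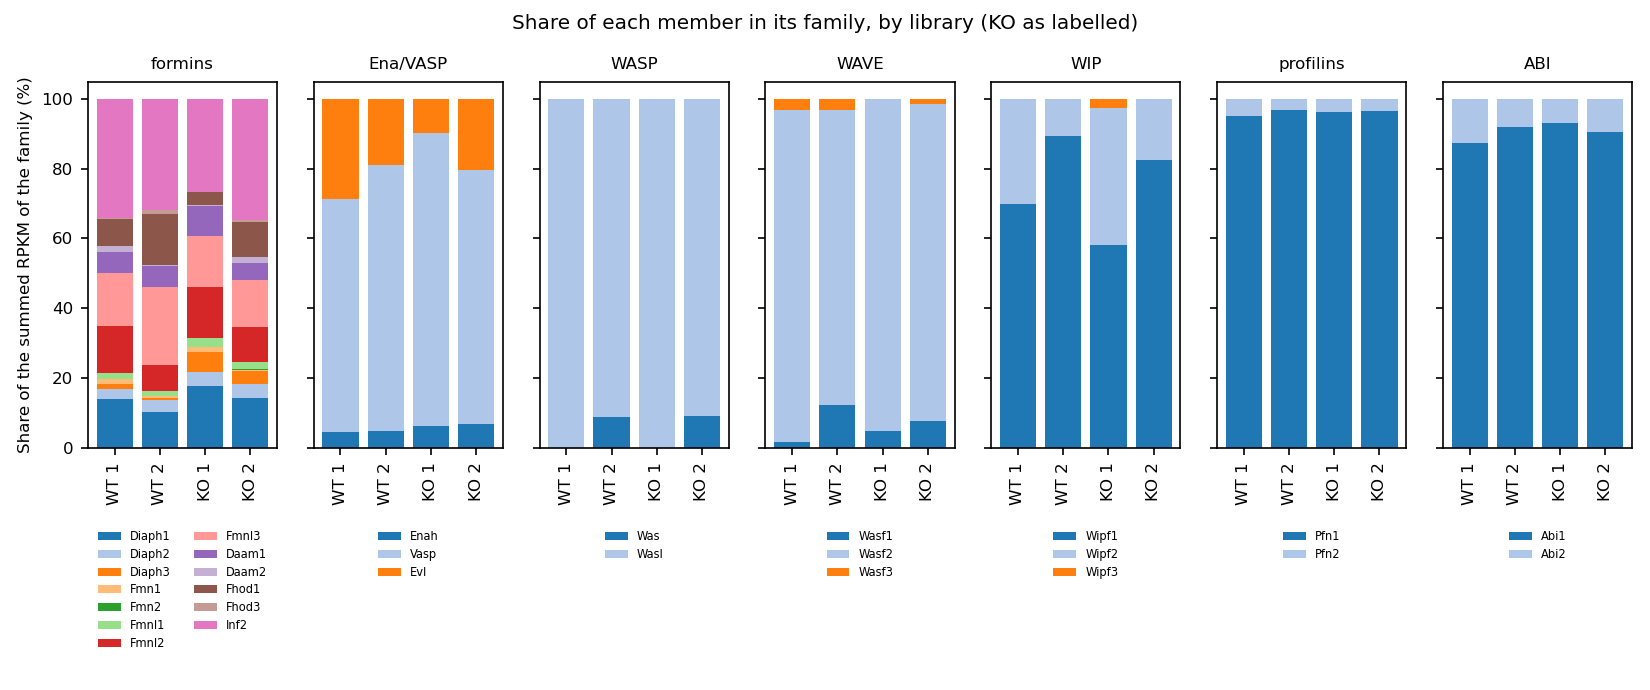
Stacked bars give the percentage of the summed RPKM of a family (y axis) that each paralog supplied in each library (x axis, WT 1, WT 2, KO 1, KO 2 as labelled), for 7 families. Vasp, Wasl, Wasf2, Wipf1, Pfn1 and Abi1 carry most of the RPKM of their families in all 4 libraries, though per coding length Wipf1 (48.6%) and Wipf2 (48.8%) are level in KO 1, while the formin signal is divided among several genes with Inf2 the largest.

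Because eIF5A eases ribosomes past prolines, the fold changes were set beside the proline content of the members. A change in mRNA level, a change in translation and ribosomes held at a stall cannot be told apart in these values. In the 11 tested members whose longest run was 5 to 9 prolines the log2 fold change had a median of -0.25, in the 10 members with 10 or more it was 0.14, and in the 4 members with 2 or fewer it was 0.39. Over all tested protein-coding genes the medians of the same classes were -0.21 (344 genes), -0.18 (57 genes) and 0.12 (7327 genes). Raph1, Fmnl2 and Enah, with the longest runs of the tested members (20, 18 and 17 prolines), had log2 fold changes of 0.24, 0.22 and 0.07. Their 95% intervals reached 1.299, 1.279 and 1.255 to either side (limma), so their place among the members is not fixed. Whether their signal depends on eIF5A was not tested. Across the 25 members the Spearman correlation of log2 fold change with longest run was 0.02, with the number of runs of 3 or more prolines -0.41, with percent proline -0.57 and with coding GC -0.56. Over 9869 protein-coding genes the same correlations were -0.17, -0.16, -0.26 and -0.36. These are descriptions over genes that share the same 4 libraries and a common base composition, since proline codons begin with CC, and percent proline and coding GC had a Spearman correlation of 0.40.

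Coding GC moved with the fold change over all genes as well. The medians for protein-coding genes were 0.29 at a coding GC under 50%, 0.11 at 50% to 55%, -0.15 at 55% to 60% and -0.44 at 60% and above, and those of the members in the same classes were 0.26 (n = 6), 0.17 (n = 8), -0.16 (n = 7) and -0.32 (n = 4). With the GC trend removed, the Spearman correlation of fold change over the 25 members was -0.39 with percent proline, -0.31 with the number of runs, -0.09 with longest run and -0.10 with GC. Over the 9869 protein-coding genes the first 3 of these were -0.11, -0.099 and -0.11. After this step 12 of the 21 tested members with a run of 5 or more were below 0, with a median of -0.04. Over 401 protein-coding genes with such a run 60.1% were below 0, with a median of -0.13.

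**Figure D5:**
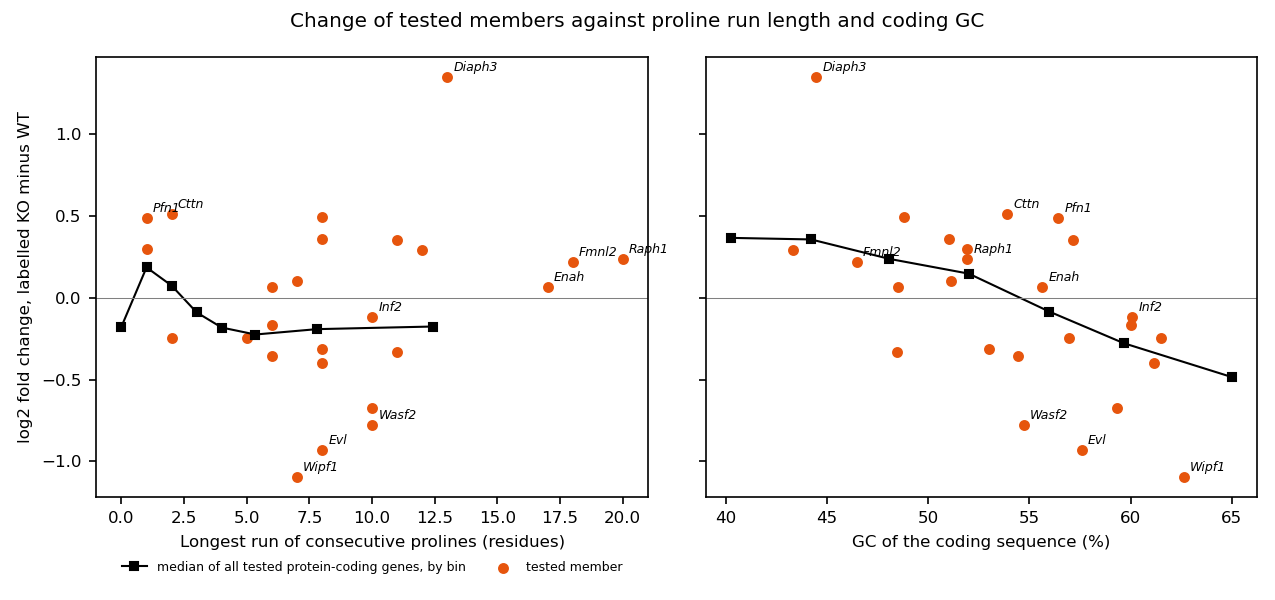
Log2 fold change of the 25 tested members (orange; y axis, labelled KO minus WT) against the longest proline run in residues (left) and coding GC in percent (right), with the median of all tested protein-coding genes by bin in black. The members with the longest runs (Raph1, Fmnl2, Enah) lie just above 0, and on the right the members follow the falling black line, with Diaph3 well above it and Wipf1, Evl and Wasf2 below.

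The genes that work with these nucleators were examined as 8 lists with 80 genes, of which 72 were tested. None was called by limma at an adjusted p under 0.05 (smallest adjusted p = 0.660), 29 were below 0 and 43 above, and the median log2 fold change was 0.15. For all lists, the share over protein-coding genes was 53.1% above 0 and 46.9% below 0. The signs are relative to the median gene, and no list was tested as a set. Of the Arp2/3 complex, the target of WASP and WAVE proteins, 8 of 9 tested subunits were above 0 with a median of 0.46. In 3 subunits both KO values lay above both WT values (background 20.1% of all tested genes and 22.4% of the protein-coding ones). All 4 tested genes of the WAVE regulatory complex outside the members were above 0, with a median of 0.16. The capping and severing proteins had 9 of 11 above 0 (median 0.25) and the actin-MRTF-SRF genes 3 of 5 (median 0.18). Of the SH3 and scaffold adaptors, which bind proline motifs, 8 of 10 were below 0 with a median of -0.33. The cofilin pathway (7 of 13 below 0, median -0.16) and the WASH complex and other nucleators (4 of 8 below 0, median -0.15) were evenly divided.

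At an unadjusted p under 0.05, 2 of these 72 genes were lower in the libraries labelled KO (background 4.46%) and 1 was higher (background 2.86%). The groups did not overlap in 8 genes that were lower (background 20.3%) and in 13 that were higher (background 20.1%), so these counts give no result about the lists either. Jmy, a nucleator and p53 cofactor, measured 8.43 and 5.75 RPKM in WT and 2.49 and 2.94 RPKM in KO (log2 fold change -1.11, SE 0.38, unadjusted p = 0.0283, adjusted p = 0.672 by limma). Cap2, a cyclase-associated protein of striated muscle, measured 6.78 and 3.06 RPKM in WT and 0.265 and 1.49 RPKM in KO (log2 fold change -1.66, SE 0.58, unadjusted p = 0.0297, adjusted p = 0.672 by limma). Its KO values rest on 1 and 5 reads and average 0.877 RPKM, below the filter, so it passed only through WT. Cfl2, the muscle cofilin that severs filaments, measured 5.59 and 5.20 RPKM in WT and 13.5 and 12.5 RPKM in KO (log2 fold change 1.13, SE 0.36, unadjusted p = 0.0203, adjusted p = 0.660 by limma). In each of these 3 genes the groups did not overlap.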

How the data were processed

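Primary myoblasts (2 WT and 2 KO libraries, grouped by the sample labels) were profiled by the authors with ribosome footprinting. Reads were aligned with TopHat2 and counted with HTSeq on mm10 per the labels and the study's methods, and the deposited values are RPKM per gene. Before alignment, the authors removed reads of low quality, reads rich in undetermined bases or with adapter faults, and reads from rRNA and tRNA. Tool versions and strand are not given in the sources used here. Each RPKM value was a whole multiple of 1 read to within 0.001 reads (100% of values), which gave 642429 to 704006 reads per library. The deposited RPKM values had been divided by library sizes of 471136 to 906990, which are not these sums.

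From the deposited RPKM values, log2(RPKM + 1) was tested with limma 3.58.1 (R 4.3.3, trended variance, no covariate) in genes averaging 1 RPKM or more, with Benjamini-Hochberg adjustment over all 11363 tested genes. The method was also run on simulated data, with larger changes than those of the members and in genes with more reads than most members hold. That run does not show what the method can detect in the members. RPKM is given in every library for members tested with at least 20 reads. Log2 fold change, SE and p are given for members whose groups do not overlap or whose unadjusted p is under 0.05, and pathway genes are named by that p alone. The 20-read rule leaves out Wasf1. Coding sequences, exons and GC came from GENCODE M21 (GRCm38), which held 99.7% of the gene identifiers, and all 32 members at the same coordinates. The values of 1 pathway list and 1 sequence are not reported here. Members and lists were chosen with earlier results of these data known. Intervals of read ratios are exact and cover counting error only. Alternatives were another pseudocount, filters, scalings, a count-based fit, a GC trend, a replicate block and leaving out each library.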

Additional observations from a re-analysis of the deposited data

How the results depend on the processing

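No member was called at an adjusted p under 0.05 in any alternative (limma, smallest adjusted p = 0.291), and the same holds for the pathway genes, with 0 called. Members at an unadjusted p under 0.05 (1 lower, 1 higher) became 0 higher without the filter on low values, with a mean of at least 5 RPKM and with protein-coding genes scaled to the same sum of RPKM or of reads, 0 lower without the variance trend, and 0 and 0 with the GC trend removed. With libraries scaled to the same sum of reads they were 0 lower and 3 higher, and to the same sum of RPKM 0 lower and 4 higher, where the median gene itself shifts by 0.49 and 0.85. The median log2 fold change of the members turned from 0.066 to -0.14 at 5 RPKM, -0.029 with the same sum of reads and -0.026 with the GC trend removed, and was -0.14 to 0.17 with 1 library left out, where 8 to 14 members were below 0 against 12. Pathway genes (2 lower, 1 higher) became 3 lower with protein-coding genes scaled to the same sum of RPKM, with protein-coding genes alone and with limma-voom on recovered reads, 1 and 2 without the filter, 0 lower at 5 RPKM, 0 lower and 14 higher under each of these 2 scalings, 2 higher after quantile normalization and 0 higher with the GC trend removed. Leaving out 1 library gave 0 to 1 members lower and 0 to 1 higher, and 0 to 2 pathway genes lower and 0 to 9 higher, 9 without WT library 2. It assumes that the lone library varies like the other group. Wipf1 lost its unadjusted p under 0.05 without any 1 of the 4 libraries, and Diaph3 without each library other than WT library 1. The median level of 7.59 RPKM became 16.7 per kilobase of coding sequence.

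Log2 fold changes of single members are given relative to the median gene where libraries were rescaled. The same sum of reads turned Enah to -0.050 and Abi2 to -0.029. The same sum of RPKM turned Inf2 to 0.067, Enah to -0.14, Zyx to 0.032 and Abi2 to -0.12. Removing the GC trend turned Diaph2 to -0.059, Fmnl2 to -0.041, Daam1 to -0.15, Inf2 to 0.20, Vasp to 0.14, Zyx to 0.15 and Abi2 to -0.052. Over the fits that leave out 1 library the ranges were -0.070 to 0.79 for Diaph1, -0.36 to 0.80 for Fmnl2, -0.34 to 0.47 for Daam1, -0.41 to 0.17 for Inf2, -0.17 to 0.30 for Enah, -0.59 to 0.089 for Vasp, -0.57 to 0.25 for Zyx, -0.26 to 0.73 for Raph1, -0.026 to 1.00 for Pfn1, -0.68 to 0.012 for Wasl, -0.98 to 0.35 for Wasf1, -1.09 to 0.28 for Wipf2, -0.063 to 0.27 for Abi2 and -0.92 to 0.42 for Ssh1. In all, 32 member values reversed and 384 did not. The cause was not tested.

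A fit with the replicate number as a block called 0 members and left the counts at an unadjusted p under 0.05 as they were, 1 lower and 1 higher. It changed no other call. Deviations of same-numbered libraries correlated at 0.06 over 11363 genes. At these read counts a single correlation cannot show whether same-numbered libraries shared a preparation, which is not given in the sources used here. Scaling to the same sum of reads, the coding-length levels, the APPRIS transcripts and the class of 10 or more prolines were chosen after seeing the data. No protein table was used, so runs come from the longest annotated coding sequence, and the APPRIS transcript gave the same longest run for all 32 members. Of the 25 tested members 24 had at least 20 reads. The SE did not follow the reads in each case, as Pfn1 with 1365 reads had an SE of 0.58 and Diaph2 with 96 reads an SE of 0.38, and what depth alone limits was not tested.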
